A study of Mus musculus with 12 samples.

Results

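The DEAD box and DEAH box helicases were examined in mouse eggs that had matured after injection of siRNAs against the mRNA-decapping genes Dcp1a and Dcp2. A gene was a member if its probe sets carried a single symbol beginning with Ddx or Dhx and a digit, with Ddx4 and Ddx6 left out. Of 18193 genes with such a single-symbol probe set on the array, 49 were members. Each was represented by its brightest probe set, judged by the mean over all 12 arrays. For 31 of the 49 that probe set was above 32 intensity units (5 on the log2 scale) on at least 3 arrays and was tested, among 6996 genes tested in the same way. The other 18 were never above 32 units on any array. They were Ddx20, Ddx21, Ddx23, Ddx25, Ddx27, Ddx31, Ddx41, Ddx42, Ddx43, Ddx52, Ddx56, Dhx8, Dhx33, Dhx34, Dhx35, Dhx37, Dhx38 and Dhx58.

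DEAD and DEAH box proteins are named after the amino acids of a conserved ATP-binding motif. They use ATP to open short RNA duplexes or to strip proteins from RNA. They serve each stage of the life of an mRNA, from splicing and nuclear export to translation and decay, and many assemble ribosomes in the nucleolus. A maturing oocyte does not transcribe and lives on stored mRNA, part of which is decapped and degraded during meiotic maturation. Dcp2 is the decapping enzyme and Dcp1a its activating partner. Not all genes with these symbols act on RNA, since Ddx11 is an iron-sulfur DNA helicase with a DEAH motif.

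All samples were CF1 mouse eggs, 30 per sample, from full-grown oocytes that were injected with siRNA, held in meiotic arrest with milrinone for 20 h and then matured for 18 h. The control group received a control siRNA, and the others Dcp1a siRNA, Dcp2 siRNA or both (the double knockdown), with 3 arrays in each of the 4 groups, labelled as independent biological replicates. The siRNAs were pools. Every group, controls included, carried injected siRNA, and no uninjected egg was analysed here. Each value is a GCRMA intensity relative to the rest of its array, so the amount of RNA per egg is not seen. In bulk samples of this kind, fewer cells holding a transcript and less of it per cell cannot be told apart.

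The targeted genes were lower where their siRNA was injected. Dcp1a lay between 5384.8 and 12427.1 units in controls and between 6397.2 and 10247.9 after Dcp2 siRNA, against 589.3 to 1235.5 after Dcp1a siRNA and 517.7 to 1233.3 after both. Dcp2 was dim, at 30.4 to 81.8 units in controls and 32.4 to 57.1 after Dcp1a siRNA, and it lay at 4.9 to 5.0 units, the lowest values of the table, in the groups given Dcp2 siRNA. All 10 egg markers were above 32 units on all 12 arrays, while 13 of 15 cumulus and granulosa cell markers and 7 of 8 blood, vessel and stromal markers were at or under 32 units on all of them. The summed egg markers were 79446 to 109958 units in controls and 120821 to 128708 in the double knockdown, where 2 of the 10 were called higher. The summed cumulus and granulosa markers, most of it from Nr5a2, were 1616 to 2222 units in controls and 1304 to 1567 in the double knockdown, with 0 of 2 tested markers called. The part of these shifts in the results was not tested. Control replicate 1 and Dcp2 knockdown replicate 2 correlated better with every Dcp1a array than with any other array of their own group. Over the tested probe sets control replicate 1 correlated at 0.938 to 0.954 with the other controls and at 0.978 to 0.988 with the Dcp1a arrays. These ranges overlapped for control replicate 2 (0.954 to 0.967 and 0.958 to 0.972) and for control replicate 3 (0.938 to 0.967 and 0.958 to 0.970). Dcp2 knockdown replicate 2 correlated at 0.938 to 0.963 within its group and at 0.978 to 0.986 with the Dcp1a arrays.

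Among the helicases 4 genes rose when both decapping genes were knocked down, Ddx1, Ddx11, Ddx18 and Ddx39b, and none fell at the threshold of 0.05 (limma, Benjamini-Hochberg adjustment over all 11593 probe sets tested). The 4 were 12.9% of the 31 members tested, where 6.78% of all genes tested were called higher and 1.64% were called lower. At an unadjusted p under 0.05, 11 of the 31 differed (35.5%), against 28.1% of all genes tested. Among the 11 was Ddx24, which was tested only through the double knockdown arrays. With either siRNA alone 0 of 31 members were called in limma, where 0.0572% of all genes tested were called after Dcp1a siRNA and 0.0286% after Dcp2 siRNA. With either siRNA alone, 4 members (12.9%) differed after Dcp1a siRNA and 6 (19.4%) after Dcp2 siRNA at that unadjusted level, against 4.9% and 10.5% of all genes. The calls over all genes depended on control replicate 1. Without it they went from 4 to 199 higher and 25 lower after Dcp1a siRNA, and from 2 to 122 higher and 11 lower after Dcp2 siRNA, and 1 member, Dhx32, was called higher after Dcp1a siRNA (log2 change 0.95, adjusted p = 0.0472). The members' median log2 change was -0.05 in the double knockdown, against 0.00 over all genes tested, with 14 members higher and 17 lower than in controls. After Dcp1a siRNA the median was -0.05, against 0.10 over all genes, and after Dcp2 siRNA -0.27, against -0.08. These medians are small and moved with single arrays and with scaling. After Dcp2 siRNA the members' median was -0.16 without Dcp2 knockdown replicate 2 (all genes -0.12), -0.14 without replicate 3 (all genes -0.05) and -0.15 without control replicate 3 (all genes -0.06). With each array centred on its median it was -0.09, against 0.10 over all genes, a step that shifts members and all genes alike. In each of these settings after Dcp2 siRNA the members' median lay below that of all genes. After Dcp1a siRNA it was 0.03 without control replicate 3, still below the 0.11 of all genes. In the double knockdown it was 0.01 after cyclic loess, against 0.03 over all genes. After quantile normalization it was -0.024 there, against -0.026 over all genes. Because the signs changed, no direction is read from the medians.

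**Figure D1:**
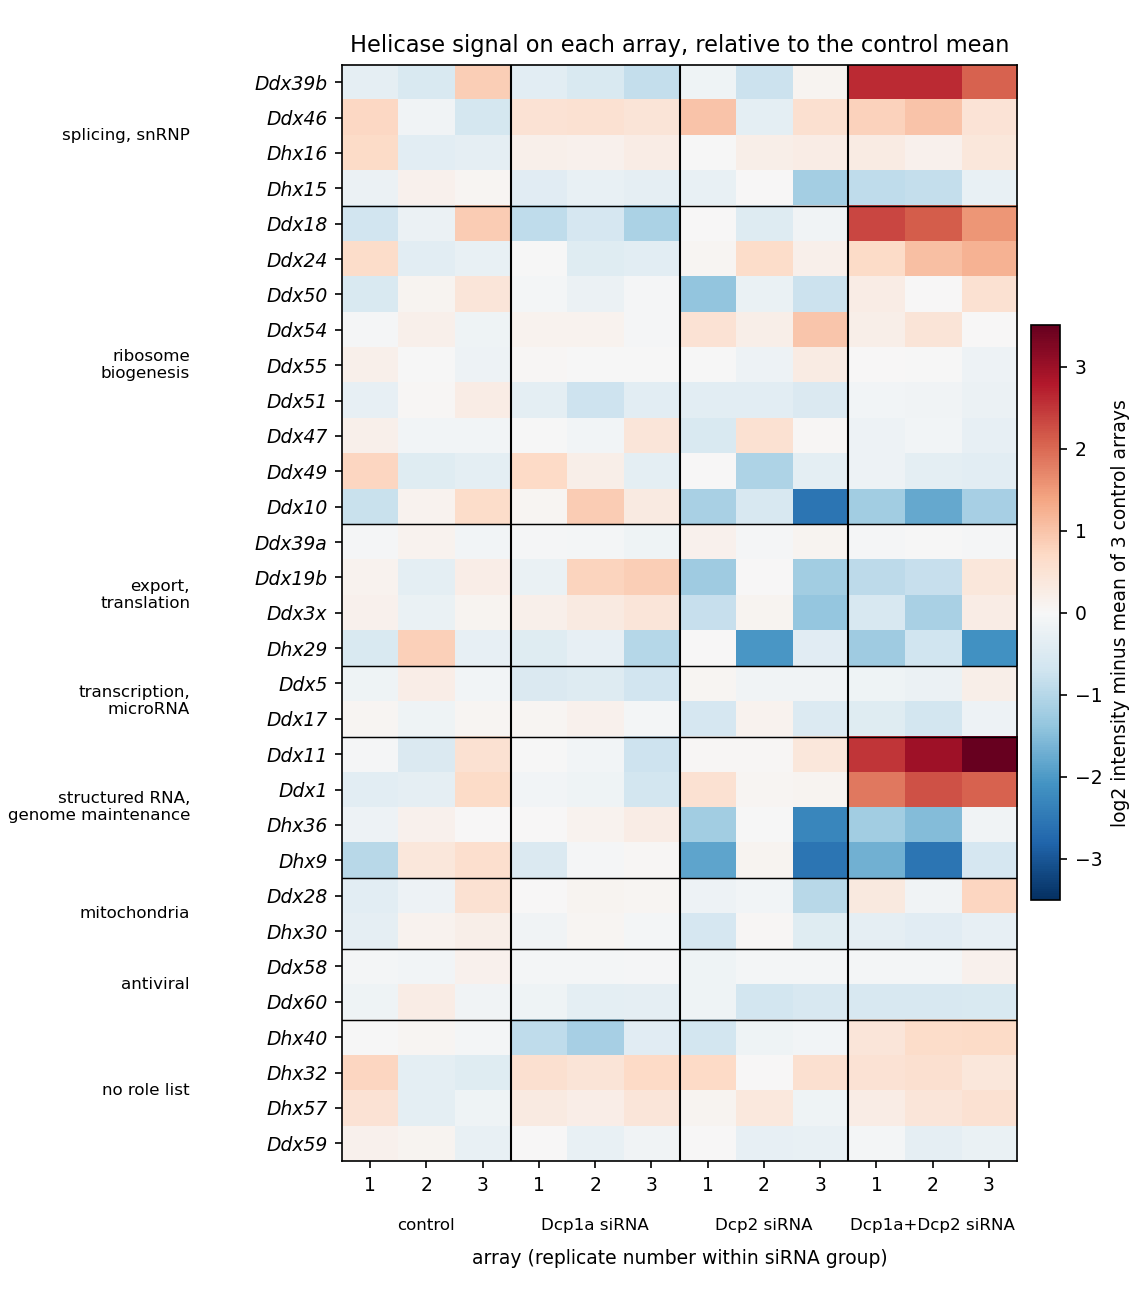
Log2 intensity of the 31 tested helicase genes (rows, grouped by role) on each of the 12 arrays (columns, by siRNA group), each shown relative to the mean of its 3 control arrays. Ddx1, Ddx11, Ddx18 and Ddx39b stand out as higher on all 3 double knockdown arrays, while most other rows stay near the control mean.

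Ddx11, a DNA helicase that works in sister chromatid cohesion and genome maintenance, showed the largest rise. Its intensity was 31.9, 23.2 and 47.6 units in controls, 32.4, 30.7 and 19.8 after Dcp1a siRNA, and 34, 34 and 42.8 after Dcp2 siRNA. With both siRNAs it was 184.0, 256.4 and 481.6 units. The lowest double knockdown array lay above the highest of the other 9 arrays, and 2 of the 3 controls were at or under 32 units. The fitted log2 change against control was 3.11 ± 0.37 (SE, n = 3 per group; limma adjusted p = 0.000582), and because of the floor the fold is given as at least 7.75-fold higher. The bound takes no account of the spread among arrays.

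Ddx1 acts in the tRNA ligase complex and in RNA transport granules. Its intensity was 46.7, 48.6 and 96.2 units in controls, 56.2, 54.3 and 38.7 after Dcp1a siRNA, and 87.6, 63.7 and 63.9 after Dcp2 siRNA. In the double knockdown it was 216.5, 281.8 and 249.8 units, again above all other arrays. The change against control was 2.04 ± 0.29 on the log2 scale, 4.12-fold higher (SE, n = 3 per group; limma adjusted p = 0.00172).

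Ddx39b, also known as UAP56, recruits splicing factors to the branch point and loads export factors onto mRNA. It measured 34.4, 29.4 and 77.7 units in controls, 33.0, 29.8 and 24.2 after Dcp1a siRNA, and 38.9, 25.3 and 45.6 after Dcp2 siRNA. It was at 260.9, 261.3 and 178.8 units after both, with no overlap with any other group. The log2 change against control was 2.43 ± 0.36, 5.37-fold higher (SE, n = 3 per group; limma adjusted p = 0.00226). The probe sets used here for Ddx1 and Ddx39b are of the kind marked by the array's maker as holding probes that may match other transcripts, as are those for Ddx3x, Ddx5, Ddx17, Ddx39a, Ddx54, Dhx9, Dhx30 and Dhx57.

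Ddx18 assembles the large ribosomal subunit in the nucleolus. It was at 68.5, 95.4 and 203.4 units in controls, 59.4, 73.7 and 51.3 after Dcp1a siRNA, 110.9, 80.4 and 100.3 after Dcp2 siRNA, and 560.0, 481.5 and 323.4 after both. The double knockdown arrays did not overlap with the rest, and the log2 change against control was 2.01 ± 0.36, 4.03-fold higher (SE, n = 3 per group; limma adjusted p = 0.00664). In all 4 genes control replicate 3 was the brightest control. The Ddx18 call was lost, at an adjusted p of up to 0.0767 over all alternatives tried, when all probe sets were tested without the filter and when the spread was taken only from the groups compared. The other 3 calls held under each alternative in which the gene was tested.

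Ddx18 and Ddx39b each had a second, dimmer probe set among those tested. For Ddx18 its mean log2 intensity was 3.35 in controls and 5.75 in the double knockdown, and for Ddx39b 2.60 and 5.38. Both passed the filter only through the double knockdown arrays, with 0 of the other 9 arrays above the floor, so a higher value there was set by the filter and no test is given. Ddx1 and Ddx11 had 1 tested probe set of 2 each. Over 21 other tested probe sets in 11 member genes, the double knockdown differed from control in the same direction as by the brightest probe set in 15. Both counts include the dimmer probe sets of Ddx18 and Ddx39b, whose direction was set by the filter.

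**Figure D2:**
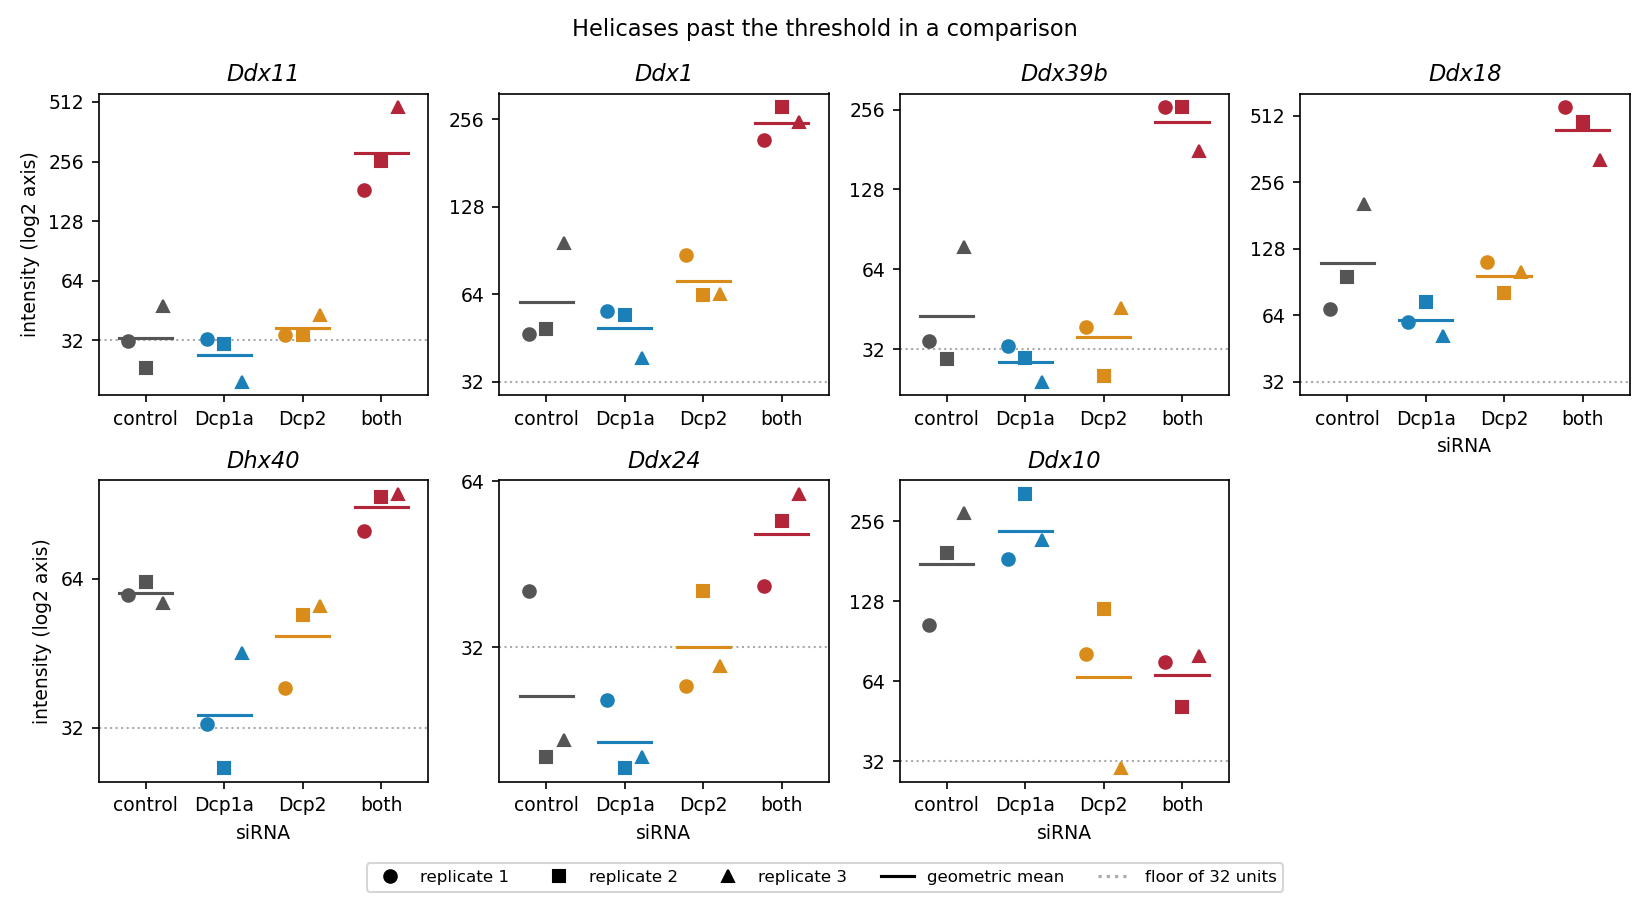
Intensity in units (log axis) of the helicase genes called in at least 1 comparison, by siRNA group, with a symbol for each array (by replicate number), a bar at the geometric mean of the 3 arrays and a dotted line at 32 units. The double knockdown points of Ddx1, Ddx11, Ddx18 and Ddx39b lie above every point of the other groups.

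The same 4 genes were also called higher in the double knockdown than in either single knockdown. These comparisons use the same double knockdown arrays as the comparison with control, so they are no separate evidence of a rise. Against the Dcp1a knockdown 6 members were called higher and 1 lower, 19.4% and 3.23% of the 31, where 8.18% of all genes tested were called higher and 3.3% lower. The 6 include Ddx24, which was tested only through the double knockdown arrays, so its call is no support for a rise. Without Dcp2 knockdown replicate 2 the genes called lower over all genes rose from 231 to 612 in this comparison and from 115 to 224 against control. Ddx11 was at least 8.81-fold higher (adjusted p = 0.000245 in limma), Ddx39b at least 7.12-fold (0.000446), Ddx18 7.30-fold (0.00061) and Ddx1 5.05-fold (0.000525). Against the Dcp2 knockdown 5 members were called higher and 0 lower, 16.1% of the 31, where 5.87% of all genes tested were called higher and 0.272% lower. There Ddx11 was 7.72-fold higher (adjusted p = 0.000737 in limma), Ddx39b 6.48-fold (0.00112), Ddx18 4.60-fold (0.00379) and Ddx1 3.5-fold (0.00311).

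Dhx40, a little studied DEAH box protein, was the fifth gene called higher against both single knockdowns. It was at 59.4, 62.9 and 57.0 units in controls, 32.5, 26.5 and 45.3 after Dcp1a siRNA, and 38.4, 54.0 and 56.4 after Dcp2 siRNA. After both it was at 79.8, 93.4 and 94.9 units, above every other array. The double knockdown was 2.63-fold higher than the Dcp1a knockdown (log2 change 1.39 ± 0.22, SE, n = 3 per group; limma adjusted p = 0.0024) and 1.82-fold higher than the Dcp2 knockdown (0.87 ± 0.22; adjusted p = 0.0427). The second of these calls was lost in 15 of 21 alternatives. Against control the log2 change was 0.58 ± 0.22, which did not pass the threshold (adjusted p = 0.133).

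The test of the departure from additivity asked whether the change with both siRNAs differed from the sum of the single changes on the log2 scale. It called 5 members higher and 0 lower, 16.1% of the 31, where 3.7% of all genes tested were called higher and 0.0572% lower. It uses the same double knockdown arrays as the comparison with control. Of the 5 genes, 4 were called there too, so the test is no separate evidence of a rise. The sum of the single changes would put Ddx11 at a log2 intensity of 4.92, and the double knockdown mean was 8.15. The same pair of values was 4.58 and 7.85 for Ddx39b, 5.74 and 8.79 for Ddx18, 5.85 and 7.95 for Ddx1, and 4.80 and 6.48 for Dhx40. The departure was 3.27 ± 0.51 for Ddx39b (SE; limma adjusted p = 0.00549), 3.23 ± 0.52 for Ddx11 (0.00642), 3.06 ± 0.51 for Ddx18 (0.00816), 2.10 ± 0.41 for Ddx1 (0.0155) and 1.68 ± 0.32 for Dhx40 (0.0133). With all values under 32 units set to 32 the departures were 3.03 for Ddx39b, 3.13 for Ddx11 and 1.59 for Dhx40, and all 5 calls held. None of the 5 calls held when all probe sets were tested with no filter, where the adjusted p was 0.062 for Ddx39b, 0.0666 for Ddx11, 0.0703 for Dhx40, 0.0769 for Ddx18 and 0.111 for Ddx1. The 1 member called there was Ddx41, which stayed under 32 units on all arrays. Without double knockdown replicate 2 the calls of Ddx1 and Dhx40 were also lost, as was that of Ddx1 without Dcp1a knockdown replicate 3.

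**Figure D3:**
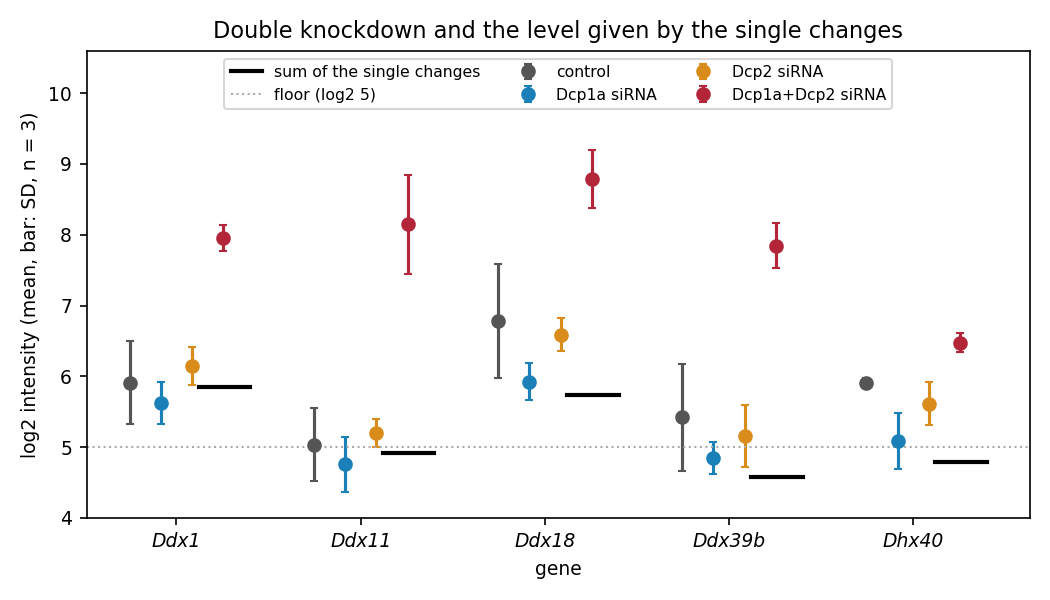
Log2 intensity (vertical axis) of the 5 helicase genes called in the test of additivity, with a point for each siRNA group's mean, bars for the SD over 3 arrays, a black line at the level that adding the single changes to the control mean would give, and a dotted line at the floor of 5. The double knockdown means, from 6.48 for Dhx40 to 8.79 for Ddx18, all lie above their black lines.

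Helicases of ribosome biogenesis formed the largest group, with 9 of 16 tested, and Ddx18 was the only 1 of these 9 called in the double knockdown against control. Their median log2 change was -0.06, and the values ran from -1.39 to 2.01. Ddx10, a nucleolar helicase of the small subunit pathway, was at 103.9, 194.2 and 274.2 units in controls, 183.9, 324.5 and 218.2 after Dcp1a siRNA, 81.2, 119.6 and 30.2 after Dcp2 siRNA, and 75.5, 51.3 and 79.5 after both. All 3 double knockdown arrays lay below all control and Dcp1a arrays. Ddx10 was called lower in the double than in the Dcp1a knockdown (log2 change -1.80 ± 0.49, SE, n = 3 per group; limma adjusted p = 0.0371), a call lost in 9 of 22 alternatives. Its change against control was -1.39 ± 0.49 (adjusted p = 0.105) in the double and -1.41 ± 0.49 (adjusted p = 0.425) in the Dcp2 knockdown.

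Ddx24, another nucleolar helicase, was at 40.4, 20.2 and 21.7 units in controls, 25.7, 19.3 and 20.2 after Dcp1a siRNA, 27.2, 40.5 and 29.6 after Dcp2 siRNA, and 41.3, 54.1 and 60.7 after both. All 3 Dcp1a arrays and 2 of 3 control arrays were at or under 32 units. Outside the double knockdown only 2 arrays were above 32 units, so Ddx24 was tested through the group in which it is high, and its call is no support for a rise. The double knockdown was at least 1.61-fold higher than the Dcp1a knockdown (limma adjusted p = 0.016), a call lost in 4 of 21 alternatives. Against control the bound was at least 1.49-fold, and the change did not pass (adjusted p = 0.0584).

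Of the splicing helicases 4 of 11 were measured, and Ddx39b was its 1 called gene. Dhx15, which takes spent spliceosomes apart, was at 5184.6, 6618.7 and 6284.5 units in controls and at 3244.4, 3349.2 and 5054.0 after both siRNAs. All 3 double knockdown arrays were below the controls, but the log2 change of -0.66 ± 0.30 did not pass (95% interval -1.31 to -0.01; limma adjusted p = 0.176).

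All 4 helicases of mRNA export and translation were measured, and 0 were called in any comparison. Ddx39a, the close relative of Ddx39b with a role in mRNA export, ranged only from 11450 to 13973 units over the 12 arrays. Its change in the double knockdown was -0.04 ± 0.14 (SE, n = 3 per group; 95% interval -0.35 to 0.28; limma adjusted p = 0.879). Ddx3x, which helps ribosomes start on structured leaders, was at 14208, 11013 and 13761 units in controls, 14526, 15944 and 17470 after Dcp1a siRNA, 7385.9, 13798 and 5060.8 after Dcp2 siRNA, and 8799.0, 5897.3 and 15430 after both. The last groups each held 1 array within or above the control range beside lower ones, and the change in the double knockdown was -0.48 ± 0.39 (adjusted p = 0.418). Dhx29, which binds the small ribosomal subunit during scanning, was at 325.2, 829.6 and 381.2 units in controls and 197.2, 290.2 and 108.2 after both. The double knockdown arrays were all below the controls, with a log2 change of -1.35 ± 0.55 (adjusted p = 0.147).

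The split seen in Ddx3x recurred in other members. In 13 of the 31 members (41.9%) the brightest Dcp2 knockdown array was replicate 2 and the brightest double knockdown array was replicate 3, as it was in 37.8% of all genes tested, a share near that of the members. Dhx36 and Dhx9, picked after their values were seen, show its size. Dhx36, which unwinds G-quadruplexes, was at 1112.4, 1377.2 and 1265.8 units in controls, 532.8, 1239.8 and 257.6 after Dcp2 siRNA, and 534.2, 433.1 and 1155.3 after both. Dhx9, a nuclear helicase for double-stranded and structured RNA, was at 125.7, 324.2 and 369.6 units in controls, 69.1, 266.2 and 41.9 after Dcp2 siRNA, and 77.6, 41.9 and 162.8 after both. Its lowest value, 41.9, thus recurred in both groups. Whether that is a background level of the probe set was not tested, so the sizes of the Dhx9 changes are uncertain. In the Dcp2 knockdown against control Dhx36 was at -1.17 with replicate 2 and at -1.75 without it, and Dhx9 at -1.43 and -2.20. Neither was called in limma without the array (adjusted p = 0.0784 for Dhx36 and 0.0817 for Dhx9). In the same comparison Ddx3x was at -1.08 without replicate 2 (adjusted p = 0.0986). In the double knockdown without replicate 3, Dhx36 was at -1.37 (adjusted p = 0.0971), Dhx9 at -2.11 (0.0823) and Ddx3x at -0.84 (0.148).

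**Figure D4:**
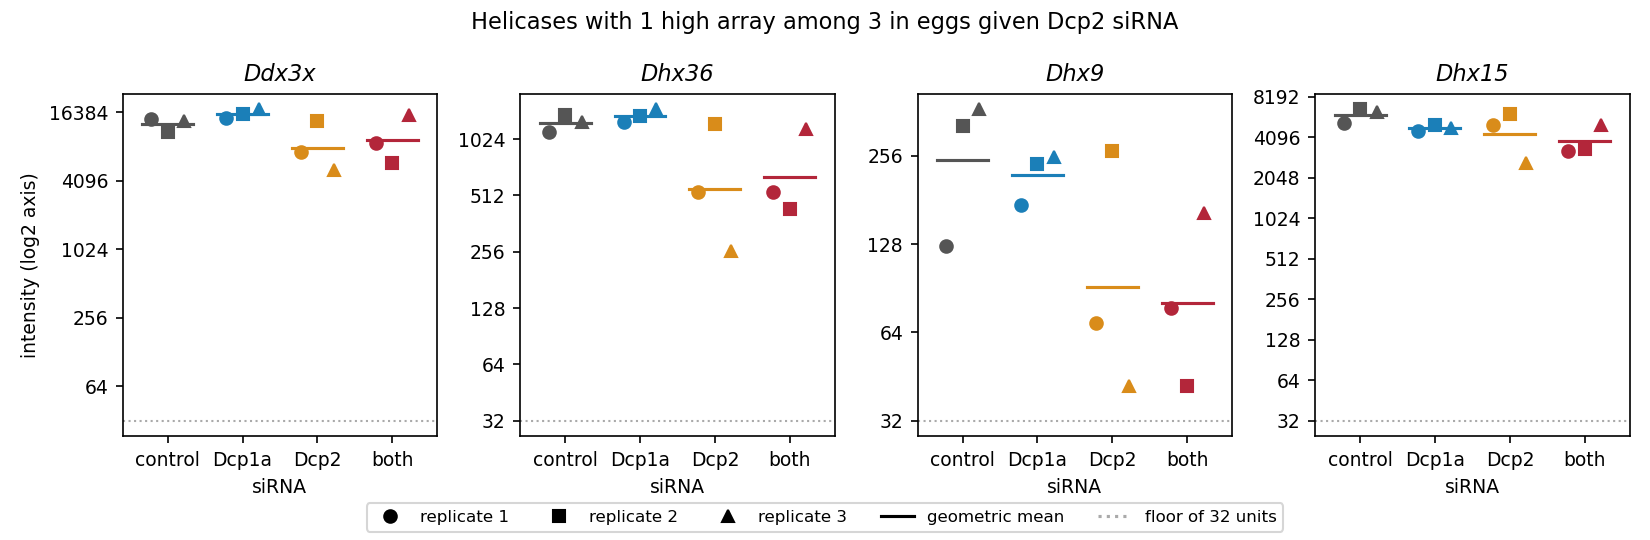
Intensity in units (log axis) of Ddx3x, Dhx36, Dhx9 and Dhx15 by siRNA group, with a symbol for each array (circle, square and triangle for replicates 1, 2 and 3), a bar at the geometric mean and a dotted line at 32 units. The square of the Dcp2 group and the triangle of the double knockdown lie above the other arrays of their groups in all 4 genes.

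Ddx5 and Ddx17, paired cofactors of transcription and microRNA processing, were both bright and neither was called. Ddx5 was at 2814.1, 2933.3 and 2501.8 units after Dcp1a siRNA, all below the control arrays at 3646.1, 4683.9 and 3787.4, and the log2 change there was -0.55 ± 0.18 (limma adjusted p = 0.853). Its change in the double knockdown was -0.05 ± 0.18 (95% interval -0.44 to 0.34). The 3 other tested probe sets of Ddx5 gave 0.43, -0.03 and -0.75 after Dcp1a siRNA and -0.63, -0.99 and -0.17 in the double knockdown, in the same order and none called, so the probe sets differ in direction after Dcp1a siRNA. Ddx17 ranged from 2003.9 to 3488.4 units over the 12 arrays, with a change of -0.41 ± 0.21 in the double knockdown (adjusted p = 0.225).

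Both mitochondrial members and 2 of the 3 antiviral RNA sensors were measured, with 0 called. Dhx30, needed for mitochondrial ribosomes, ranged from 3611.9 to 6224.2 units and changed by -0.34 ± 0.20 in the double knockdown (limma adjusted p = 0.284). Ddx28, which acts in mitochondrial ribosome assembly, ranged from 25.2 to 84.2 units and changed by 0.32 ± 0.31 (adjusted p = 0.498). Ddx58, the sensor RIG-I, stayed between 99.3 and 124 units over all arrays, with a change of 0.01 ± 0.15 (95% interval -0.32 to 0.33). The same value, 106.4 units, recurred on control replicate 1, Dcp1a knockdown replicates 1 and 2, Dcp2 knockdown replicate 2 and double knockdown replicate 1. Whether it is a background level of the probe set was not tested, so the narrow interval is not read as an unchanged transcript. Ddx60, an antiviral helicase, was at 98.8, 131.4 and 99.0 units in controls and 74.3, 74.3 and 75 after both siRNAs. Its double knockdown arrays lay below all controls, and the change of -0.54 ± 0.18 did not pass (limma adjusted p = 0.09). Dcp2 knockdown replicate 3 also read 74.3 units. Whether this repeated value is a background level of the Ddx60 probe set was not tested, so the size of the change is uncertain. Neither germ line member, of 2 on the array, was measurable.

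**Figure D5:**
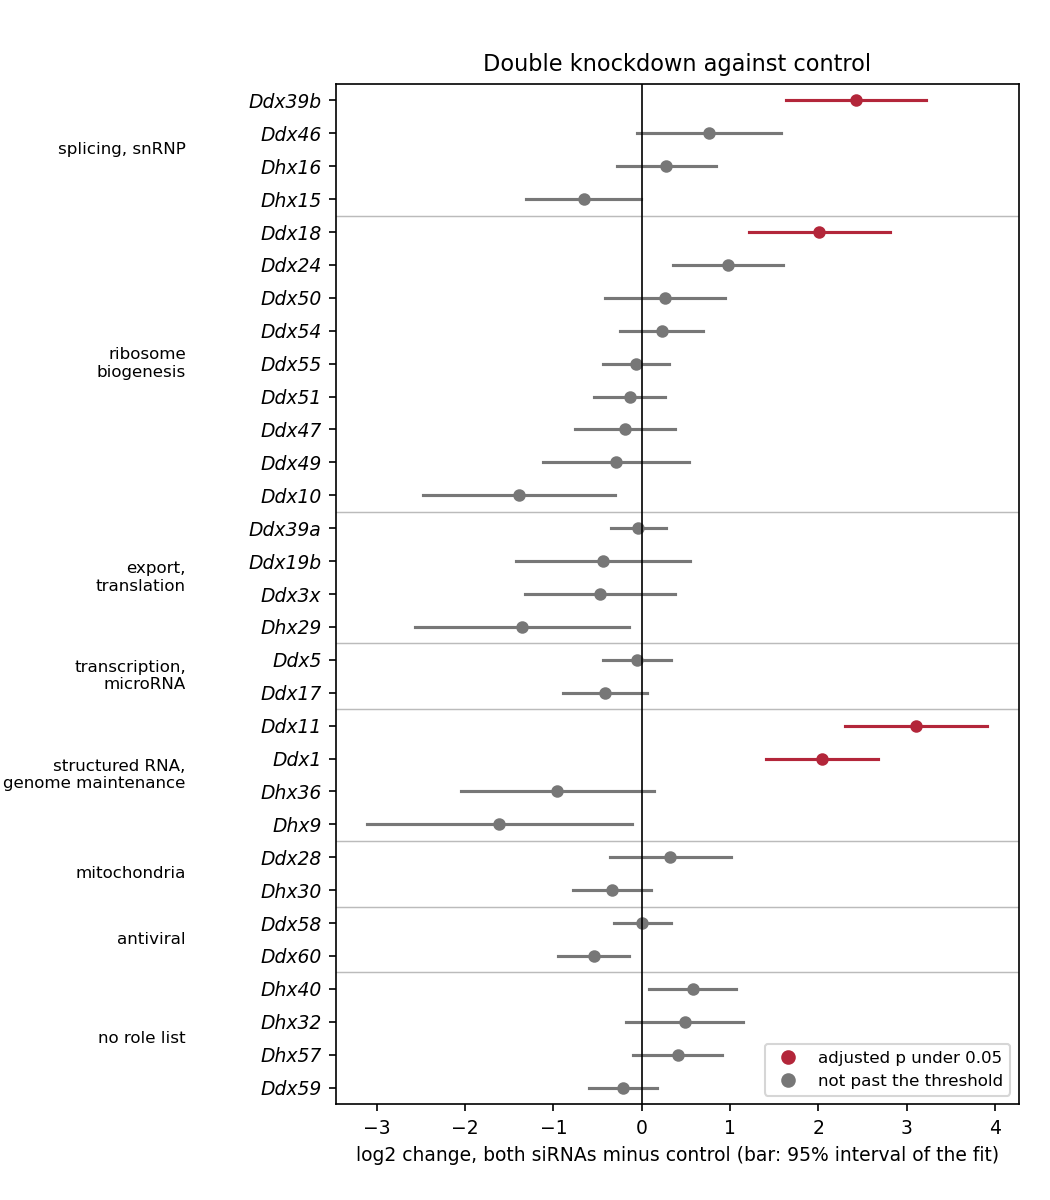
Log2 change (horizontal axis) of the 31 tested helicase genes in the double knockdown against control, with points for the limma estimate and bars for its 95% interval, grouped by role. The called genes Ddx1, Ddx11, Ddx18 and Ddx39b (red) have intervals wholly above 1, and no other member does.

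Over all 31 members the double knockdown arrays did not overlap with the control arrays in 11 (35.5%), against 25% of all genes tested. The share was 19.4% for the Dcp1a knockdown, against 11.8% of all genes, and 12.9% for the Dcp2 knockdown, against 7.06%. The call count depended on control replicate 1. Without that array 10 members were called in the double knockdown against control, 9 higher and 1 lower, while the calls over all genes rose from 474 higher and 115 lower to 1177 and 341. The 6 members added, named after their values were seen, were Ddx24, Dhx32, Dhx16, Dhx57 and Ddx46 on the higher side and Ddx10 on the lower, the last at a log2 change of -1.77. Ddx24, also among the 11 without overlap, was tested only through the double knockdown arrays, so its call is no support for a rise. For Ddx46 the direction depended on the probe set. With all arrays its brightest probe set differed from control by 0.76 in the double knockdown, and its 3 other tested probe sets by -1.11, -0.34 and -0.14, none of them called in limma.

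Helicases of other families and the proteins that assist these enzymes were set beside them, with 14 of 21 and 22 of 29 genes tested. None of the 14 other helicases was called in the double knockdown in limma. Those with the smallest p were Upf1, the helicase of nonsense-mediated decay, at 0.55 ± 0.22 (limma adjusted p = 0.146), and Ascc3, of the ribosome quality control and alkylation repair complex, at -1.23 ± 0.50 (adjusted p = 0.149). Of the 22 cofactors 2 were called higher and 0 lower, where 6.78% of all genes tested were called higher and 1.64% lower. No excess over all genes is read from 2 calls. Eif4h, which stimulates the translation helicase Eif4a, was at 36.1, 60.4 and 623.3 units in controls and 1993.8, 1677.6 and 2377.5 after both siRNAs. Control replicate 3 stood far above the other controls, and all controls lay below the double knockdown arrays, and the log2 change was 4.17 ± 0.86 (adjusted p = 0.0135). Without control replicate 3 it was 5.42 (adjusted p = 7.64e-05). The call was lost without control replicate 2 (adjusted p = 0.0677) and without double knockdown replicate 1 (0.0574) or 2 (0.058). Nup214, the nuclear pore protein that docks the export helicase Ddx19b, was at 2235.2, 694.3 and 1340.6 units in controls and 4142.3, 4605.8 and 2842.9 after both, a log2 change of 1.57 ± 0.39 (adjusted p = 0.0296). That call was lost without control replicate 2 (adjusted p = 0.1) or 3 (0.0541) and without double knockdown replicate 1 (0.113) or 2 (0.134).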

How the data were processed

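RNA of 30 eggs per sample was amplified in 2 rounds and hybridised to Affymetrix mouse arrays, per the labels' protocols. The authors deposited a linear intensity for each probe set on each array, made with GCRMA per the submitters' processing notes. The sources used here do not name its version. GCRMA compresses dim probe sets towards a common low value, and 75.63% of values were at or under 32 units. The number of arrays limits precision. Analysis was on the log2 scale. Without the 64 control probe sets among 45101, the 11593 with log2 above 5 on at least 3 of 12 arrays were tested. Gene symbols came from the platform annotation. All 49 members matched the RefSeq gene table of GRCm38.p6 by Entrez number, with 0 symbols changed.

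The test was that of limma (version 3.58.1, R 4.3.3) on group means over all 12 arrays, two-sided, with 8 residual degrees of freedom and Benjamini-Hochberg adjustment over the 11593 probe sets. Shares of genes called were counted over the 6996 genes whose brightest probe set was tested. Where the dimmer group's mean or median log2 was at or under 5, the fold is a bound against that floor. The fit was run on simulated data, with changes placed only in brighter probe sets and only for the double knockdown against control. That run does not cover probe sets as dim as those of Ddx1, Ddx10, Ddx11, Ddx24, Ddx39b and Dhx40. Members, role lists and tests were chosen with earlier results of these data known. Named genes are the called members, up to 2 per role with the smallest p in the double knockdown, the 6 brightest members, and of the related lists those called or the pair with the smallest p. Alternatives covered a floor, scaling, filters, the replicate block, the spread estimate, the choice of probe set and leaving out each array.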

Additional observations from a re-analysis of the deposited data

Results flagged for a closer look

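In 5 helicase genes the effect of 1 siRNA differed with the presence of the other, by the interaction test in limma over all genes (adjusted p-values from 0.00549 to 0.0155). The test uses the same double knockdown arrays as the comparison with control, where 4 of the 5 were called. It is therefore no separate evidence of a rise. None of the 5 passed with no filter on dim probe sets (0.062 to 0.111), and Ddx1 and Dhx40 did not pass without double knockdown replicate 2. The departure from the sum of the single log2 changes was 3.27 for Ddx39b, 3.23 for Ddx11, 3.06 for Ddx18, 2.10 for Ddx1 and 1.68 for Dhx40. All 5 were positive, and the lowest double knockdown array was above all other 9 arrays in each gene. For Dhx40 the single log2 changes against control were -0.82 after Dcp1a siRNA and -0.29 after Dcp2 siRNA, values that did not pass the threshold.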

How the results depend on the processing

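The number of helicase genes called was 4 in the double knockdown against control, 7 and 5 against the Dcp1a and Dcp2 knockdowns, 5 for the departure from additivity, and 0 for either single knockdown. A stricter filter (log2 above 6 on at least 6 arrays) left 21 members tested, with Ddx1, Ddx11 and Ddx39b no longer among them. The counts were then 1, 2, 1 and 1 for the first 4 of these comparisons. Over the 5811 genes tested there, 244 were called higher and 86 lower against control, and 329 and 162 against the Dcp1a knockdown. Against the Dcp2 knockdown they were 185 and 11, and for the departure from additivity 90 and 1. With 1 or 2 member calls, no excess over all genes is read there. With the main filter the 7 calls include Ddx24, which was tested only through the double knockdown arrays. With no filter, and p-values adjusted over every probe set that was not a control, none of the 5 departures from additivity was called, and the 1 member called was Ddx41. Over all 18193 genes 87 were then called higher and 2 lower. Leaving out each array in turn gave 4 to 10 calls against control, the highest without control replicate 1, which also gave 1 call for the Dcp1a knockdown against control (range 0 to 1). The ranges were 5 to 7 against the Dcp1a knockdown, 4 to 6 against the Dcp2 knockdown, and 3 to 5 for the departure from additivity, with 3 without double knockdown replicate 2, when the calls of Ddx1 and Dhx40 were lost. The cause of these shifts was not tested.

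Same-numbered arrays deviated together at correlations from -0.685 to 0.394, so the numbers were not taken as pairs. With a replicate block the counts were 4, 6, 4 and 5, and Ddx10 against the Dcp1a knockdown (adjusted p = 0.0617) and Dhx40 against the Dcp2 knockdown (0.06) were no longer called. Median centring, quantile normalization and cyclic loess left 4 or 5 calls against control. Centring moved the median of all genes in the double against the Dcp2 knockdown from 0.06 to -0.15. Intensities near the floor limit Ddx11, Ddx39b and Ddx24, whose control or single knockdown values lay partly under it. Dhx40 was also under it on Dcp1a knockdown replicate 2 (26.5 units), and Ddx10 on Dcp2 knockdown replicate 3 (30.2 units). The level given by the sum of the single changes was under it for Ddx11, Ddx39b and Dhx40. Members' median changes near 0 changed sign, in the double knockdown from -0.05 to 0.01 (against control, cyclic loess) and from 0.14 to -0.07 (against the Dcp2 knockdown, centring). No log2 change called for a named gene reversed under the alternatives tried.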

Other observations

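Among the members that never rose above 32 units, Ddx41 and Ddx42 were looked at after their values were seen. Ddx41 was at 5 to 5.4 units on the 9 arrays of the other groups and at 8.1 to 10 units on the 3 double knockdown arrays. Ddx42 reached 28.4 units on 1 array, the highest value among the 18 untested members. Both lie under the level set for testing, so these are values only.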
